A study of Mus musculus with 2 samples.

Results

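Neutrophils that held few transcripts of secondary granule proteins were described in single-cell RNA-seq of mouse periodontal ligament, the connective tissue that joins the tooth root to the jaw bone. The barcodes were chosen by their transcripts: S100a8 and S100a9, the subunits of calprotectin, had to make up at least 2% of the unique molecular identifiers (UMIs, counted transcript molecules), and Camp, Ngp and Ltf, which encode proteins of the secondary granules, together less than 1%. By this rule 135 of 1760 barcodes were members, 18 of 348 in the control library and 117 of 1412 in the library from orthodontic tooth movement (OTM). Both libraries came from male C57BL/6J mice aged 8 weeks, with no mutant allele or transgene named in the labels. In the OTM group the upper left first molar had carried a forward pull of 10 g for 6 days. The control group was taken, from its title and the design text, as the right side, which bore no load. The treatment text of the control sample repeats that of tooth movement. Each group was 1 droplet library that counts the 3' ends of transcripts, made from ligament on pulled roots and sockets of 5 pooled mice after digestion by collagenase followed by trypsin. There were no replicates, and load and side of the mouth cannot be told apart. Every difference below is one between 2 libraries, without a p-value, and an interval covers counting error only, not the spread between mice or between barcodes. A change per cell and a change in which cells were caught cannot be told apart.

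Neutrophils are short-lived phagocytes that form in the bone marrow. While they mature they first make primary granule proteins such as myeloperoxidase and elastase, then secondary granule proteins such as cathelicidin (Camp), neutrophilic granule protein (Ngp) and lactoferrin (Ltf). They stop making these before they leave for the blood, and then carry receptors such as Csf3r, for the growth factor G-CSF, and Cxcr2, for chemokines that call them into tissue. In inflamed tissue mature neutrophils make Il1b and chemokines. The study's stated interest is in neutrophils and osteoclasts during tooth movement. Il1a, Tnf and Csf1 are known to act on osteoclasts, the cells that resorb bone.

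Cxcl2 and Cxcl3 encode neighbouring chemokines that bind Cxcr2, and they behaved differently in the counts below: Cxcl2 was among the most abundant transcripts of the members in both libraries, while Cxcl3 had UMIs in the OTM library and none in the receptor-positive control members. Their promoters are shown for that reason, from RefSeq (GRCm38.p6), from 250 bases before to 50 bases after the start site, 5′ to 3′ on the gene's own strand. Cxcl2 lies at chr5:90903649-90903948 (plus strand) and Cxcl3 at chr5:90785851-90786150 (plus strand). Capitals mark the letters GGNNTTTCC, a form of the kappaB motif, which was searched on both strands.
Cxcl2: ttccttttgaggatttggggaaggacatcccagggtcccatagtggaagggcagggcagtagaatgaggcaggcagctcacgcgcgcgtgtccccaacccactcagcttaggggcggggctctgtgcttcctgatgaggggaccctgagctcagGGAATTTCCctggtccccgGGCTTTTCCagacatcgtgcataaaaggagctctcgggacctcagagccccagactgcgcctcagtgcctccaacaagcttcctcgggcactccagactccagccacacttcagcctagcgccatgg
Cxcl3: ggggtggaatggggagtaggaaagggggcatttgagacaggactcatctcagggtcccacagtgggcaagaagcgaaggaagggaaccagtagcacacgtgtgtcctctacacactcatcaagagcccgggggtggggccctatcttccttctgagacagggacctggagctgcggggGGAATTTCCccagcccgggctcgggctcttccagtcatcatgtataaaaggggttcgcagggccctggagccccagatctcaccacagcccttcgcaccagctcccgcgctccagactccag
The Cxcl2 window held these letters 2 times, at -96 and -77 from the start site, and the Cxcl3 window 1 time, at -72. Of 32851 promoter windows of this length, 5.82% held them. Il1a, which encodes the alarmin interleukin 1 alpha, was also higher in the OTM library, and its window (chr2:129309923-129310222, minus strand) held the letters TGANTCA, a form of the AP-1 motif, at -12, shown in capitals. These letters read alike on both strands and were found in 7.81% of windows.
Il1a: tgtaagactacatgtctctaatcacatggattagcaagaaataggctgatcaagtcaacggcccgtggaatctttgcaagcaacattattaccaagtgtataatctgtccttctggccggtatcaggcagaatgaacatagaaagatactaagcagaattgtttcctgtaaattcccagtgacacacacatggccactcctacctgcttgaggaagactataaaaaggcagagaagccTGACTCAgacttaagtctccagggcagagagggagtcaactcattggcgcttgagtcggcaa
The Il1b window held neither motif. Windows of other genes higher in OTM were searched too, and for a C/EBP motif as well. Those of Il1rn, Csf1 and Bcl2a1b held kappaB or AP-1 letters, and those of Spp1, G0s2 and Cdkn1a held neither. A link between a motif and a ratio was not tested. A match here is only a run of letters, and no match says nothing about a factor.

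The rule was checked first against the markers of the cells. Of the 135 members, 122 carried a UMI of Csf3r or Cxcr2 and had less than 1% of their UMIs from markers of other lineages. These are called receptor-positive members below, 16 in the control and 106 in the OTM library. Both receptors were found in 15 of 16 and in 84 of 106 of them. Levels are given as CPM, the gene's share of the summed UMIs scaled to 1000000. Csf3r stood at 1306 CPM in the summed control barcodes and at 884 CPM in OTM, and Cxcr2 at 889 and 571 CPM. As these receptors helped to choose the barcodes, their levels only describe them. The limit of 1% covered, among others, markers of T and NK cells, B cells, epithelium, stroma, endothelium and macrophages or monocytes. Low sums of those markers below follow in part from that choice. Markers of T and NK cells summed to 0 UMIs in control and 86 in OTM, of which 2 were in barcodes up to 20000 UMIs. Those of B cells summed to 8 and 14 UMIs, of eosinophils to 0 and 6, of mast cells or basophils to 0 and 1, and of epithelium to 2 and 11. Cd3e, Cd79a, Cpa3, Epx and Epcam had no UMI in either library, but other markers of these classes did in OTM. They numbered 3 of 6 for T and NK cells, 2 of 4 for B cells and 2 of 4 for epithelium. For eosinophils they numbered 1 of 3, and for mast cells or basophils 1 of 5. Dendritic markers summed to 6 UMIs in control and 87 in OTM. Cycling markers summed to 0 and 93 UMIs, and 12 of the 93 were in barcodes up to 20000 UMIs. Osteoclast markers, among them Mmp9, summed to 2375 CPM in control and 985 CPM in OTM. Stromal markers summed to 246 CPM in control and 579 CPM in OTM, or 243 CPM up to 20000 UMIs. Endothelial markers summed to 9.46 CPM in control and 485 CPM in OTM, and to 127 CPM in OTM barcodes up to 20000 UMIs. The 12 macrophage or monocyte markers summed to 189 CPM in control and 295 CPM in OTM. Of the 12, 4 had UMIs in control and 9 in OTM, and C1qa, Ccr2 and Fcgr1 had none in either library.

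The other 13 members, 2 control and 11 OTM barcodes, went against the name. Of these, 12 drew at least 1% of their UMIs from keratin genes, and 11 of the 12 had no UMI of Csf3r or Cxcr2. Their most abundant transcripts were BC037156, annotated as a lincRNA, at 86189 CPM in control and 116273 CPM in OTM, followed by S100a9, the epithelial keratin Krt14 (29664 and 17674 CPM), the cornified envelope gene Sprr2d and, in OTM, U90926 and the odontogenic gene Odam. Epithelial cells of the gum also make S100a8 and S100a9, and these barcodes are described here by their keratins and not as neutrophils. The remaining OTM barcode held 1260 UMIs, 15.9% of them mitochondrial, and neither a receptor nor a keratin UMI. Together the 13 barcodes held 19.1% of the members' UMIs in control and 38.0% in OTM, and the largest of them reached 130685 UMIs.

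**Figure D1:**
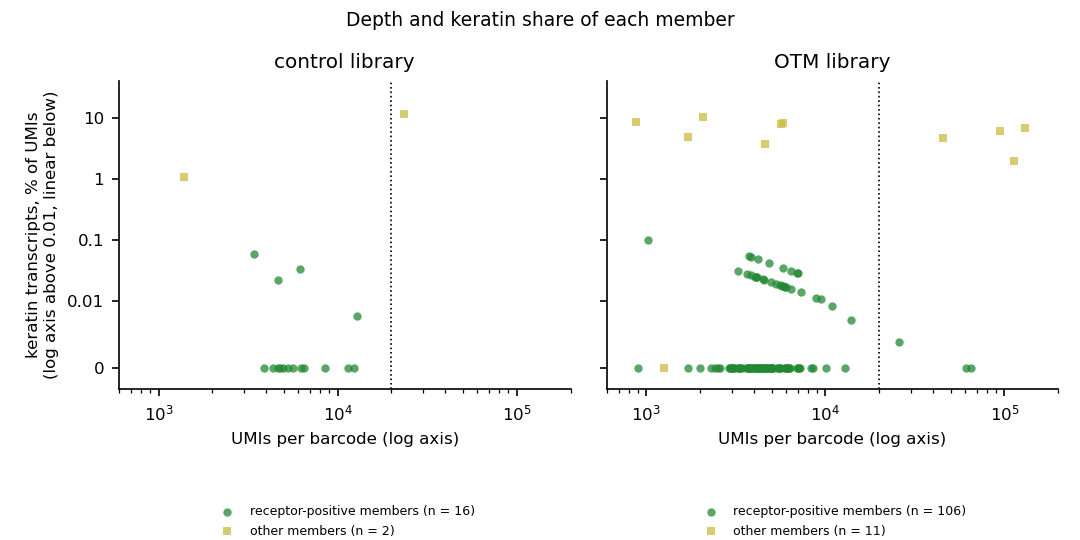
Keratin transcripts as a percentage of UMIs (vertical axis, logarithmic above 0.01) against UMIs per barcode (horizontal, logarithmic), 1 point per member, for the control (left) and OTM library (right). Green circles are the 16 and 106 receptor-positive members, yellow squares the 2 and 11 other members, and the dotted line is 20000 UMIs. Yellow squares lie above 1% keratin except for 1 OTM barcode at 0, and 3 green circles lie right of the line.

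Among the receptor-positive members, 3 OTM barcodes exceeded 20000 UMIs and held 22.9% of the UMIs of all 106. The barcodes of 25673 and 61141 UMIs drew 0.382% and 0.258% of their UMIs from endothelial markers. The third, of 64810 UMIs, drew 5.57% from primary granule genes and held 0 Il1b and 2 Retnlg UMIs. It too went against the name of mature neutrophils, and it was kept among the 106. No control member of this kind passed 12847 UMIs. Values are therefore given for the receptor-positive members, with those of the 103 OTM barcodes up to 20000 UMIs beside them where the 2 differ, and with those of all members where they change the reading. This last limit and its comparison were added after the data were seen. A further OTM barcode of 12898 UMIs, with 0.403% endothelial markers, is still in the smaller set. No barcode sequence occurred in both libraries. Scrublet, run on each library, marked 2 control and 8 OTM barcodes as doublets, of which 1 OTM barcode was a member.

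Members made up 5.17% of kept barcodes in control (exact 95% interval 3.09% to 8.05%) and 8.29% in OTM (6.90% to 9.85%). With an interval of -0.08 to 5.71, the gap of 3.11 percentage points was not detectable at this depth. Of the barcodes past the S100 limit, 18 of 41 in control (43.9%, 28.5% to 60.3%) and 117 of 171 in OTM (68.4%, 60.9% to 75.3%) were low in granule transcripts. That difference was 24.5 points (6.52 to 41.4). Restricted to receptor-positive barcodes the shares were 45.7% and 68.8%, 23.1 points apart (3.77 to 41.5). The granule-rich neutrophil barcodes, which passed the S100 limit with 1% or more of granule transcripts, were the remaining 23 and 54. The libraries held 369 and 1539 barcodes with 5723299 and 36010801 UMIs, so every control value rests on few barcodes.

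**Figure D2:**
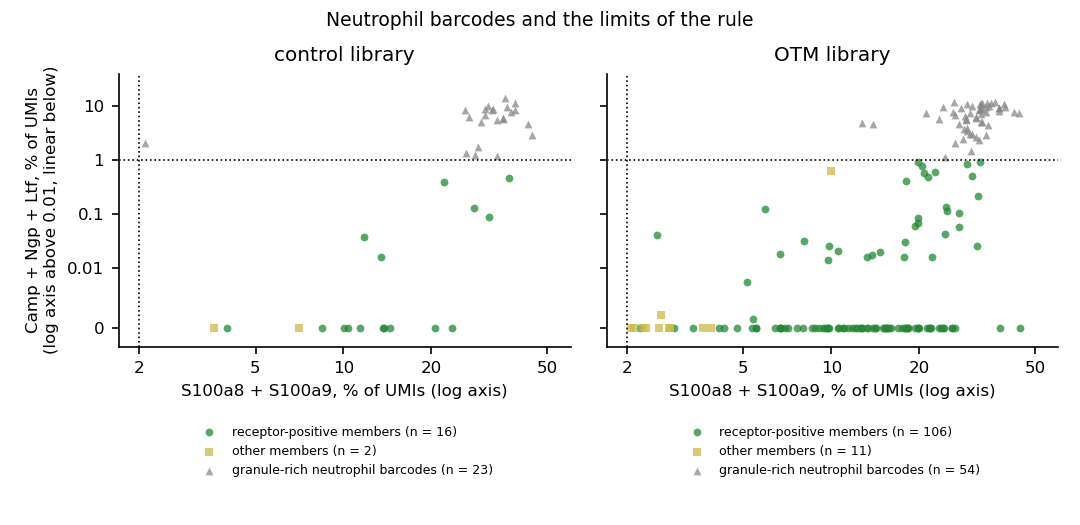
Camp, Ngp and Ltf transcripts (vertical, logarithmic above 0.01) against S100a8 and S100a9 transcripts (horizontal, logarithmic), both as percentages of UMIs, for each barcode past the S100 limit in the control (left) and OTM library (right). Dotted lines are the limits of 2% and 1%. Most green circles (receptor-positive members) lie at 0 granule transcripts and grey triangles (granule-rich barcodes) between 1% and 14%.

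Most members lay far from the granule limit. No Camp, Ngp or Ltf UMI was found in 10 of 16 receptor-positive control members and in 72 of 106 OTM members. The members closest to the limit held 0.459% in control and 0.935% in OTM, and the nearest barcodes outside it 1.21% and 1.15%. At the S100 limit the gap was narrower in the OTM library, where the lowest members held 2.06% and 2.11% and the nearest barcodes outside 1.83% and 1.75%. In control the lowest member held 3.59% and the next barcode outside 0.853%. S100a8 and S100a9 ranged widely within the receptor-positive members, from 3.98% to 36.9% of UMIs in control (median 13.7%) and from 2.21% to 44.4% in OTM (median 14.8%). The median member held 5473 UMIs in control and 4588 in OTM, against 17219 and 13453 in the granule-rich barcodes.

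Set beside the granule-rich barcodes of the same library, the receptor-positive members held more RNA of Il1b, Ccl4, Ptgs2, Wfdc17 and Ifitm1, among the genes with the highest ratios. These ratios follow in part from how the barcodes were split and are given as a description. Il1b stood at 5942 CPM in control members and 107 CPM in granule-rich control barcodes, and at 9276 and 274 CPM in OTM. Ccl4, a chemokine, stood at 2053 against 50.1 CPM in control and at 3248 against 39.7 CPM in OTM. Ptgs2, the inducible cyclooxygenase of prostaglandin synthesis, stood at 265 against 4.78 CPM and at 449 against 3.97 CPM. Wfdc17, a small antiprotease-like secreted protein, and Ifitm1, an interferon-induced membrane protein, were also higher, by 6.12 and 6.14 in control and by 6.17 and 5.44 in OTM on the log2 scale. Csf3r was higher by 3.01 (control) and 2.95 (OTM) on the log2 scale. The members here had to carry a Csf3r or Cxcr2 UMI and the granule-rich barcodes did not, so this ratio is partly fixed by the choice.
Below the granule-rich barcodes in both libraries were Chil3, a chitinase-like granule protein (log2 -8.50 and -6.21), and Cybb, the catalytic subunit of the NADPH oxidase (-3.20 and -2.96). Fcnb, a ficolin, and Lta4h, an enzyme of leukotriene B4 synthesis, had no UMI in the control members and 49 and 29 UMIs in OTM members.

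The members varied among themselves within each library. Across the 106 receptor-positive OTM members S100a8 and S100a9 followed each other (Spearman rho 0.94), and S100a8 followed Retnlg, a resistin-like secreted protein of late maturation (0.57), while Retnlg ran against Ccl3 (-0.45) and Il1b (-0.33). Il1b followed Cxcl2 (0.66). In the 16 control members the same pairs gave 0.86, 0.69, -0.48, -0.45 and 0.58. Cd14 and Il1rn gave 0.52 in OTM and 0.03 in control, a difference that was not tested. These coefficients describe barcodes of 1 library that share its depth and its sampling, and values within a barcode are shares of 1 total. Members at 10000 CPM of Retnlg or more numbered 5 of 16 in control and 36 of 106 in OTM, close shares of each library.

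Between the libraries, 1393 genes had enough UMIs in the receptor-positive members to be compared (at least 10 UMIs expected in each library). Of these, 183 (13.1%) were at least 2-fold higher in OTM and 105 (7.54%) at least 2-fold lower, and the median log2 ratio was -0.09. With barcodes up to 20000 UMIs alone, 76 of 1345 genes (5.65%) were higher and 62 (4.61%) lower. Over all 135 members, keratin-rich barcodes included, 282 of 1724 genes (16.4%) were higher and 230 (13.3%) lower. Scaling by the median of ratios moved the ratios of all members up by 0.19 and their counts to 344 higher and 142 lower, and moved those of the receptor-positive members up by 0.11. The counts thus depend on the 3 deep OTM barcodes, and for the genes below the value up to 20000 UMIs stands beside the other where it changes a 2-fold call or differs clearly.

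Ratios below are log2 ratios of OTM over control. List counts stand beside 13.1% of all compared genes at least 2-fold higher and 7.54% lower. Up to 20000 UMIs these shares were 5.65% and 4.61%. Of the 10 cytokine genes that could be compared, 3 were at least 2-fold higher (Il1a, Il1rn and Csf1) and none lower. The cytokine list's median log2 ratio was 0.79, and 0.85 up to 20000 UMIs. In the granule-rich barcodes the medians of the cytokine, chemokine and osteoclast signal lists were 1.05, 0.95 and 0.97, over 8, 6 and 6 genes. The median of all genes compared there was 0.04. Higher values of these 3 lists in OTM were thus not particular to the members. Il1b, at chr2:129364570-129371139 (GRCm38), encodes the cytokine interleukin 1 beta, which drives inflammation and bone resorption. It was found in 16 of 16 control and 103 of 106 OTM members. By barcode it ran from 324 through a median of 6253 to 24026 CPM in control and from 0 through 6889 to 47653 CPM in OTM. The ranges overlapped and the medians lay close, with the OTM barcodes reaching higher. The log2 ratio of the sums was 0.64 (0.52 to 0.76), 0.86 up to 20000 UMIs, and 0.26 over all members, so Il1b did not pass 2-fold. After each barcode was thinned to 1000 UMIs, Il1b was found in 81.2% of control (54.4% to 96.0%) and 91.4% of OTM members (84.4% to 96.0%), against 0.00% and 0.151% of thinned stromal barcodes. Before thinning the stromal shares were 1.32% and 2.24%, at median depths of 19156 and 22566 UMIs.

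Il1rn, the natural antagonist of the interleukin 1 receptor, was at 0 to 3592 CPM in control members (median 620) and 0 to 17405 CPM in OTM (median 996). Its ratio of sums was 1.23 (0.89 to 1.59), and 1.56 up to 20000 UMIs. It was higher in the sums, yet the share of members with a UMI after thinning was 56.2% in control and 58.1% in OTM. The sum of Il1rn over all members also draws on the keratin-rich barcodes, where 11 of 13 held it. Il1a had 16 control UMIs in 5 of 16 members and 352 OTM UMIs in 51 of 106, a ratio of 1.81 (1.09 to 2.64), or 2.11 up to 20000 UMIs, and its highest OTM barcode reached 9388 CPM. No thinned stromal barcode held Il1a in either library. Tnf, the tumour necrosis factor, ran at 0, 429 and 2051 CPM in control (lowest, median, highest) and at 0, 603 and 5265 CPM in OTM. Its ratio of 0.94 (0.50 to 1.41) lay below 2-fold and that up to 20000 UMIs, 1.26, above it. Csf1, the growth factor of macrophages and osteoclast precursors, had 10 control UMIs and 163 OTM UMIs, with a ratio of 1.38 (0.46 to 2.47), or 1.55 up to 20000 UMIs. Osm, a cytokine of the interleukin 6 family, lay at -0.04 (-0.58 to 0.54). Tnfsf11, the osteoclast differentiation factor RANKL, and Il6 had no UMI in the receptor-positive members of either library. Among the 9 signals to osteoclasts that could be compared, 3 were at least 2-fold higher (Csf1, Il1a and Spp1), with a median of 0.77. Up to 20000 UMIs 5 were higher, where Tnf and Ccl3 also passed. The shares of all compared genes were 13.1% and 5.65%.

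**Figure D3:**
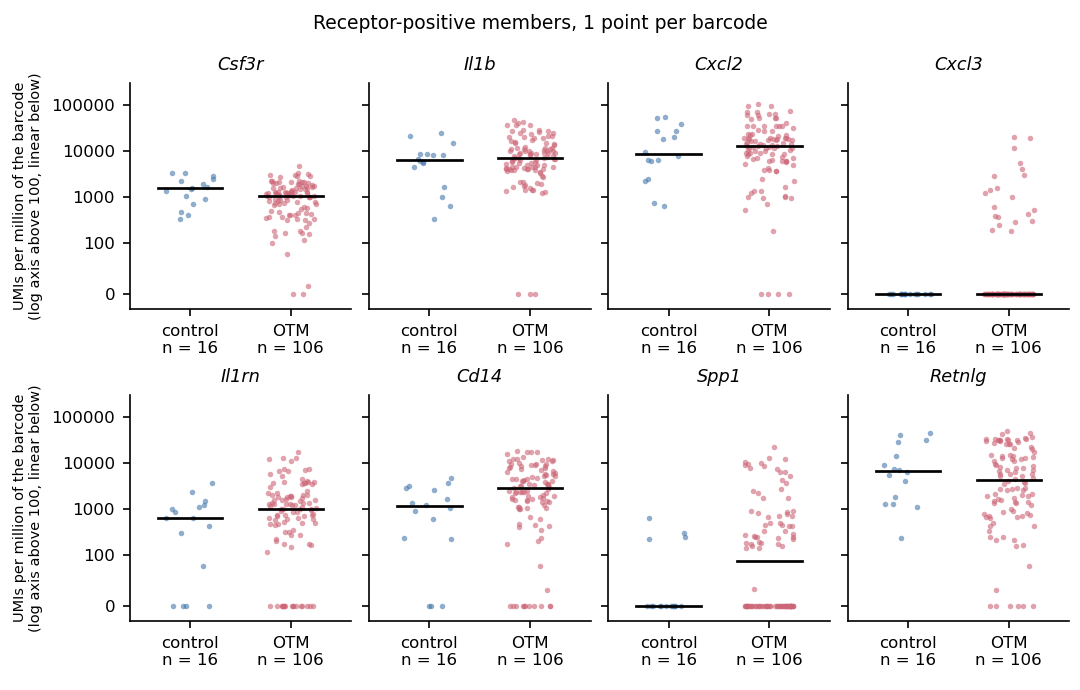
CPM of each receptor-positive member (vertical axis, logarithmic above 100 and linear below) for 8 genes, with 16 control barcodes in blue and 106 OTM barcodes in red, and a black bar at each median. Control and OTM points overlap for every gene. For Cxcl3 all control points and most OTM points are at 0, and 21 OTM points lie above it.

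Of 15 chemokine genes, 6 had enough UMIs to be compared. Cxcl2 was the fourth most abundant transcript of the OTM members and the seventh of the control members. It ran at 623, 8370 and 53562 CPM in control (lowest, median, highest) and at 0, 12695 and 105562 CPM in OTM. The ratio of its sums was 0.45 (0.37 to 0.53), 0.72 up to 20000 UMIs, 0.19 with barcodes weighted equally and 0.07 over all members. Cxcl3, the neighbour with the same kappaB letters, had 0 control UMIs and 421 OTM UMIs, which is at least 22.4-fold higher at a floor of 3 UMIs over the control sum. It was found in 21 of 106 OTM members (19.8%, 12.7% to 28.7%), and in 0 of 16 control members. That 0 allows a share of up to 18.8% by the limit of 3 counts and 20.6% by the exact interval, both within the OTM interval, so a difference in the share of barcodes with Cxcl3 was not detectable at this depth. One OTM barcode held 24.5% of the Cxcl3 sum. Of the 21 members with Cxcl3, 20 lay above the OTM median for Cxcl2 and 14 above that for Il1b. The other members also held Cxcl3, with 2 control UMIs in 1 of 2 barcodes and 462 OTM UMIs in 5 of 11. Ccl3 and Ccl4, chemokines of monocytes, had ratios of 0.77 (0.52 to 1.02) and 0.66 (0.46 to 0.87), and of 1.05 and 0.99 up to 20000 UMIs. In control, 57.6% of the Ccl4 sum came from 1 barcode. Of the 6 chemokine genes compared, only Cxcl3 passed 2-fold in the receptor-positive members, and Cxcl3 and Ccl3 up to 20000 UMIs. Among all compared genes 13.1% and 5.65% were higher in these sets.

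Genes that sense microbes and genes of survival came next. Cd14, a co-receptor for bacterial lipopolysaccharide, ran at 0, 1134 and 4720 CPM in control and at 0, 2778 and 17918 CPM in OTM, so the OTM barcodes reached higher while the ranges overlapped. The Cd14 ratio was 1.49 (1.24 to 1.75), and between 1.11 and 1.76 in all members, up to 20000 UMIs and with equal weights. At 1000 CPM of Cd14 or more stood 9 of 16 control members (56.2%, 29.9% to 80.2%) and 81 of 106 OTM members (76.4%, 67.2% to 84.1%). Cd14 and Tlr13, a sensor of bacterial RNA, at 1.01 (-0.10 to 2.36), were 2 of 12 genes of the list past 2-fold, and none was 2-fold lower. That count was near the 13.1% of all compared genes that were higher. Up to 20000 UMIs Tlr4 and Clec4n passed as well. Bcl2a1b, of the A1 family that delays neutrophil death, had a ratio of 1.83 (1.08 to 2.68), or 2.18 up to 20000 UMIs, with UMIs in 6 of 16 and 60 of 106 members. Its copies Bcl2a1a, Bcl2a1b and Bcl2a1d are nearly identical, so reads may be split between them. Mcl1, another survival factor of neutrophils, differed little at -0.08 (-0.26 to 0.10). G0s2, a lipolysis inhibitor that marks mature neutrophils, ran at 0, 301 and 4799 CPM in control and 0, 571 and 9149 CPM in OTM, a ratio of 1.36 (0.99 to 1.75), or 1.62 up to 20000 UMIs. Of 17 genes of NF-kB feedback none passed 2-fold in the receptor-positive members, while 2 of 18 (Nfkb1 and Ier3) were higher up to 20000 UMIs. Nfkbia, the inhibitor of NF-kB, lay at -0.04 (-0.20 to 0.13).

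**Figure D4:**
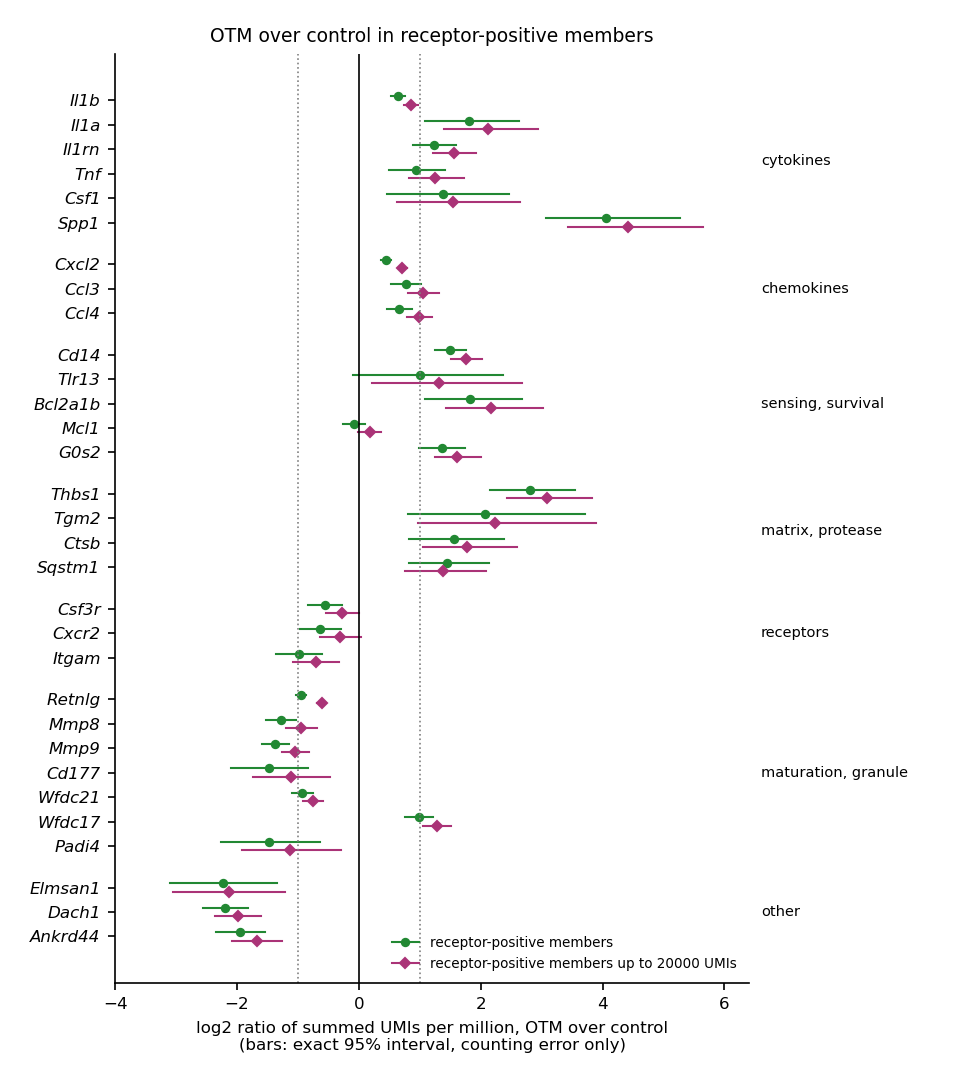
Log2 ratio of OTM over control (horizontal) of summed CPM for named genes, ordered by role, in the receptor-positive members (green circles) and in those up to 20000 UMIs (purple diamonds). Bars are exact 95% intervals for counting error, and dotted lines mark 2-fold. Spp1 lies farthest right at 4.06 and 4.42, and Mmp9, Mmp8 and Cd177 lie left of 0 in both sets.

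Spp1 and Thbs1 had large ratios in the receptor-positive members. Spp1, at chr5:104435118-104441050, encodes osteopontin, a secreted protein of bone and of macrophages. It had 8 control UMIs in 4 of 16 members and 835 OTM UMIs in 54 of 106. Its ratio was 4.06 (3.07 to 5.28), and between 3.69 and 4.42 in the other sets. In OTM 20 of 106 members (18.9%, 11.9% to 27.6%) held 1000 CPM or more and the highest 21496 CPM. No control member passed 628 CPM. That 0 of 16 at 1000 CPM allows a share of up to 20.6% by the exact interval, which lies within the OTM interval. A difference in the share of members at 1000 CPM or more was thus not detectable at this depth. The intervals of the shares with any Spp1 UMI also overlapped, at 7.27% to 52.4% in control and 41.05% to 60.8% in OTM. Spp1 was also higher in the other barcodes of the OTM library. In stromal barcodes it stood at 1205 CPM in control and 5875 CPM in OTM, in mononuclear phagocyte barcodes at 128 and 4016 CPM, and in granule-rich barcodes at 4.78 and 112 CPM. After thinning, Spp1 was found in 6.25% of control and 32.4% of OTM members, and in 17.2% and 21.8% of stromal barcodes. Whether free Spp1 RNA added to the members' counts was not tested. Thbs1, thrombospondin 1, a matrix and platelet protein, had 19 UMIs in 4 of 16 control members and 831 in 54 of 106 OTM members. Its ratio was 2.80 (2.15 to 3.54), and 3.08 up to 20000 UMIs. In stromal barcodes Thbs1 went the other way, from 426 CPM in control to 134 CPM in OTM, and in granule-rich barcodes it stood at 294 and 301 CPM. Tgm2, a transglutaminase, had a ratio of 2.06 (0.81 to 3.71), Ctsb, a lysosomal protease, 1.55 (0.83 to 2.38), and Sqstm1, the autophagy receptor p62, 1.44 (0.82 to 2.14). Up to 20000 UMIs they lay at 2.24, 1.77 and 1.39. Control counts for these 3 genes were 5, 16 and 22 UMIs.

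Among all compared genes 7.54% were at least 2-fold lower and 13.1% higher. Of 19 late maturation genes compared, 5 were at least 2-fold lower (Mmp8, Mmp9, Stfa2l1, Ifitm6 and Cd177), against 1 higher (G0s2), and the median was -0.69. Up to 20000 UMIs this imbalance was gone, with 2 lower (Mmp9 and Cd177) and 2 higher (Wfdc17 and G0s2), while the median was -0.61. Mmp8 at -0.94, Ifitm6 at -0.95 and Stfa2l1 at -0.80 were then under 2-fold. Mmp9, the gelatinase of the tertiary granules, ran at 215, 1212 and 5048 CPM in control and at 0, 757 and 3897 CPM in OTM. The OTM barcodes lay lower with wide overlap, at a ratio of -1.37 (-1.59 to -1.15). Mmp8, the neutrophil collagenase, had a ratio of -1.28 (-1.53 to -1.03), and medians of 356 CPM in control and 211 CPM in OTM. Retnlg, at chr16:48872621-48874496, ran at 229, 6747 and 44567 CPM in control and 0, 4130 and 49111 CPM in OTM, a ratio of -0.95 (-1.03 to -0.88), or -0.61 up to 20000 UMIs. Cd177, a surface protein that pairs with proteinase 3, had a ratio of -1.48 (-2.10 to -0.83), and Padi4, the enzyme that citrullinates histones when neutrophils release their chromatin, -1.48 (-2.27 to -0.64). These differences shrank when barcodes were weighted equally, to -0.78 for Mmp9, -0.62 for Mmp8, -0.32 for Retnlg, -0.71 for Cd177 and -0.83 for Padi4, all under 2-fold. In control, single barcodes held 34.4% of the Mmp8 sum and 43.8% of the Cd177 sum. Wfdc17 of the same list lay on the other side of 0, at 0.99 (0.76 to 1.22). Stfa2l1 belongs to a family of near copies, and its count is uncertain for that reason.

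None of 23 mature neutrophil receptor genes passed 2-fold in the receptor-positive members, and their median was -0.31, or 0.01 up to 20000 UMIs. Csf3r had a ratio of -0.56 (-0.83 to -0.28), Cxcr2 of -0.64 (-0.97 to -0.30) and Itgam, the integrin CD11b, of -0.99 (-1.36 to -0.61). Over all members 6 of 22 receptor genes were at least 2-fold lower, among them Cxcr2 at -1.01 and Itgam at -1.37. The other members, most of them keratin-rich and without a receptor UMI, held 19.1% of the members' UMIs in control and 38.0% in OTM. Whether this lowered the ratios over all members was not tested. Fpr1, a receptor for bacterial formyl peptides, lay at -0.31 (-0.65 to 0.04). Cxcr4, which returns ageing neutrophils to the marrow, lay at -0.50 (-1.02 to 0.05). Siglecf, reported on neutrophils of some tissues, had 2 control and 4 OTM UMIs.

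**Figure D5:**
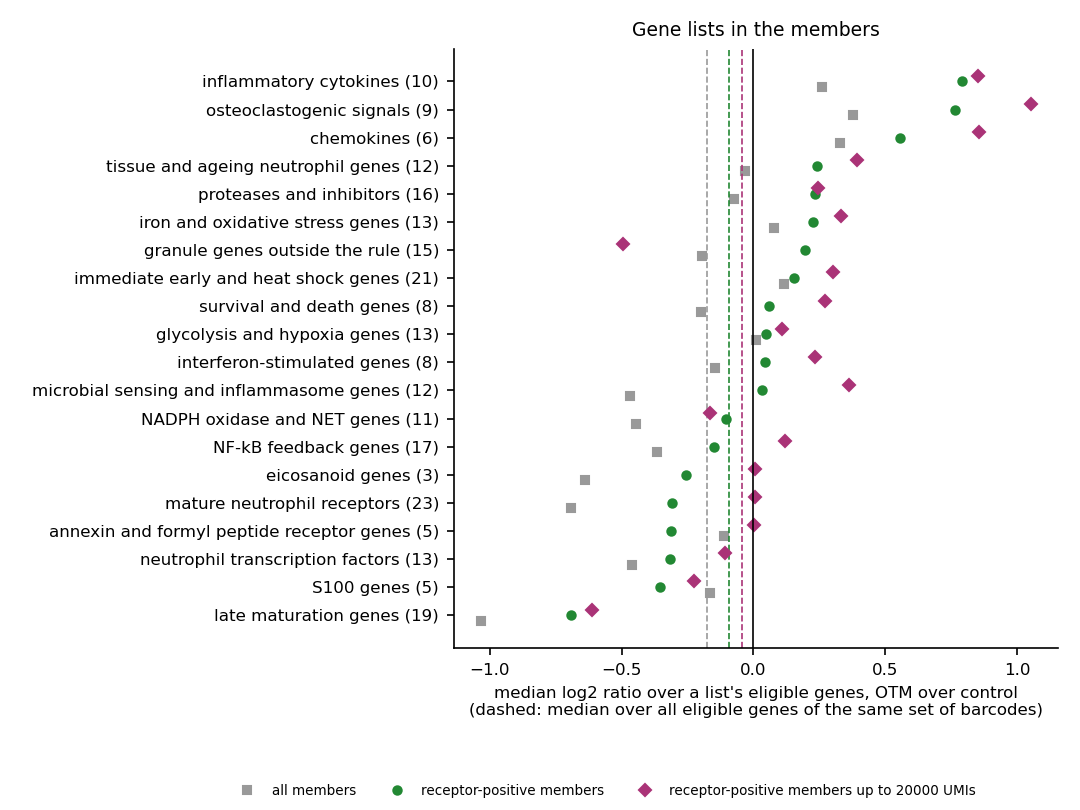
Median log2 ratio of OTM over control (horizontal) over the compared genes of 20 lists, with the number of genes compared in receptor-positive members in brackets, for all members (grey squares), receptor-positive members (green circles) and those up to 20000 UMIs (purple diamonds). Dashed lines are the medians of all compared genes. Cytokines, osteoclast signals and chemokines lie right of 0 and late maturation genes left of 0 in the 3 sets. The list of granule genes and several other lists, such as survival, microbial sensing and NF-kB feedback genes, change side.

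Among granule genes outside the rule, those of the primary granules came almost wholly from 1 barcode. In the receptor-positive members, Mpo, Elane, Prtn3 and Ctsg, the primary granule proteins, had 646, 1046, 1196 and 725 OTM UMIs against 0, 0, 1 and 0 in control. Up to 20000 UMIs, Mpo kept 2 UMIs and Elane, Prtn3 and Ctsg none. The barcode of 64810 UMIs described above thus held nearly all of them, and it had 1 Csf3r and 2 Cxcr2 UMIs. Without all 3 deep barcodes the list's median went from 0.19 over 15 genes to -0.49 over the 10 that could still be compared. Of the list's 3 lower genes (Cd177, Mmp8 and Mmp9), Cd177 and Mmp9 were still at least 2-fold lower. Lcn2, a secondary granule protein that the rule did not use, lay at -0.73 (-0.87 to -0.58) in receptor-positive members and -0.45 up to 20000 UMIs.

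The genes with the highest ratios in the receptor-positive members by the naming rule were Spp1, Rpsa, Ppia, Cdkn1a, Thbs1, Sec61g, Rack1, Hsp90ab1, Tgm2 and Tet2. Rpsa, a ribosomal protein, went from 3.70 to 0.93 (-0.29 to 2.43) up to 20000 UMIs. Ppia, the chaperone cyclophilin A, went from 3.41 to 0.40 (-0.68 to 1.69). Rack1, Sec61g and Hsp90ab1, genes of translation, secretion and protein folding, likewise went to 0.62, 1.19 and 0.41. Cdkn1a, the cell cycle inhibitor p21, rested on 2 control UMIs, a ratio of 3.38 (1.49 to 6.44). Tet2, a DNA demethylase, had 4 control and 102 OTM UMIs, at 2.03 (0.63 to 3.93).
The genes with the lowest ratios were Elmsan1, Dach1, Ankrd44, Upf2, Rbm38, Dbnl, Irs2, Myadm, D1Ertd622e and Ncoa2, from -2.23 to -1.61. Elmsan1, a subunit of a histone deacetylase complex, had 21 UMIs in 6 of 16 control and 28 UMIs in 16 of 106 OTM members. Dach1, a transcription factor, had 109 control and 149 OTM UMIs, at -2.20 (-2.56 to -1.83), but 1 control barcode held 88.1% of its control sum. Ankrd44, a regulatory subunit of a phosphatase, had a ratio of -1.95 (-2.35 to -1.54), with UMIs in 13 of 16 and 57 of 106 members and 41.2% of the control sum in 1 barcode.

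Over all members the rule named Mt1, Ptma, Pcbp2, Thbs1, AA467197, Eef1b2, Ppia, Rpsa, Mif and Selenof as highest, each with a log2 ratio of at least 2.01. AA467197 went from 2.32 in all members to -0.37 in receptor-positive members. Lowest over all members were Dach1, Elmsan1, Ankrd44, Rbm38, Myadm, Sla, Tnfaip6, Padi4, Cd177 and Ogt, from -2.58 to -1.85.

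Among interferon-stimulated genes of the receptor-positive members 1 of 8 was higher, Isg15, a ubiquitin-like protein, at 1.37 (0.57 to 2.31), and 1 lower, Oasl2, an antiviral protein, at -1.09 (-1.84 to -0.28), which at -0.92 was under 2-fold up to 20000 UMIs. The ferritin chain gene Fth1, among the most abundant in both libraries, ran at 4497, 19141 and 53207 CPM in control and 809, 23317 and 93473 CPM in OTM, a ratio of 0.30. None of 13 neutrophil transcription factors passed 2-fold, and Cebpb, a factor of emergency neutrophil production, lay at 0.73 (0.53 to 0.95). Of 21 immediate early and heat shock genes 4 were higher, Hspa5, Hspa8, Hsp90aa1 and Hsp90ab1, and none up to 20000 UMIs. Of 3 eicosanoid and 5 annexin or formyl peptide receptor genes none passed 2-fold. Over the 20 lists together, 27 of 202 genes were higher and 7 lower, where 13.1% and 7.54% of all compared genes were, so the share of higher genes was near that of all genes. Up to 20000 UMIs 23 of 198 were higher and 3 lower, where 5.65% and 4.61% of all compared genes were. The lists were chosen with earlier results of these data known.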

How the data were processed

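Single-cell RNA-seq of periodontal ligament was read from 2 deposited matrices of raw UMI counts, which per the file headers come from Cell Ranger 7.0.1. Seurat and the builds GRCm38 and mm10 are listed in the submitters' processing notes; the authors' cell filter is not given in the sources used here. Kept barcodes had at least 200 genes and at most 20% mitochondrial UMIs (348 of 369 and 1412 of 1539, from 502 to 222392 UMIs each). UMIs of the members were summed per library and scaled to 1000000 (Python 3.11.15, numpy 2.4.6, scipy 1.17.1, pandas 2.3.3). Sums have exact Poisson, shares Clopper-Pearson and ratios conditional binomial 95% intervals; differences of shares join those bounds by Newcombe's method. With 1 library per group no test was made, and a call means at least 2-fold. The ratio intervals were tried on simulated Poisson counts without spread between barcodes. That can check the computation for counting error only, not how the intervals fit these data.

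Stromal barcodes had S100a8 and S100a9 under 2% and at least 1% of UMIs from Col1a1, Col1a2, Col3a1 and Sparc. Mononuclear phagocyte barcodes were under both limits, with at least 3 macrophage or monocyte markers and 0.1% of UMIs from them. Gene names come from the files and coordinates from GENCODE M21 (GRCm38), and features with 1 of the 78 symbols that repeat were told apart by their Ensembl identifiers. Named genes were the 5 markers, the 10 most abundant, the 10 highest and 10 lowest eligible ratios between libraries and against granule-rich barcodes, and up to 6 members of each list. Eligible for naming were genes with 10 UMIs expected per library, detected in 25% of members of the higher library. They also had to reach 20% of its stromal level. Mitochondrial, ribosomal protein, haemoglobin, Gm, Rik and sex-linked genes and markers of other cell types were left out. Ribosomal protein genes were known by symbols with Rpl or Rps before a digit, so Rpsa stayed eligible. Other genes named, such as Tnfsf11, Il6, Cxcr4, Siglecf, Cebpb and BC037156, were chosen after their values were seen. Members, lists and rules were chosen with earlier results of these data known. Alternatives changed the filter, the limits of the rule, doublets (Scrublet in scanpy 1.11.5), weighting, scaling, the count minimum and the depth.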

Additional observations from a re-analysis of the deposited data

Results flagged for a closer look

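Elmsan1 was at least 2-fold lower in the OTM library in the receptor-positive members, with a log2 ratio of -2.23, and at least 2-fold higher there in the granule-rich neutrophil barcodes, with a log2 ratio of 1.03. It was singled out because the 2 kinds of neutrophil barcode moved in opposite directions between the same 2 libraries, each with a counting interval that left out 0. The difference between them was not tested, since there was 1 library per group.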

How the results depend on the processing

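No paired analysis was possible because each group was 1 library and the labels carry no replicate numbers. The share of members was higher in OTM under all 10 settings that give a share, by 2.11 to 3.82 percentage points. Over all members 282 genes passed 2-fold upward in OTM and 230 downward, among them 31 and 24 list genes. These counts became 170 and 151 (7 list genes lower) with S100 transcripts of at least 4%, 183 and 105 (7 lower) in receptor-positive members, and 133 and 132 (7 lower) with barcodes weighted equally. Median-of-ratios scaling gave 142 lower (11 list genes lower), and a minimum of 3 expected UMIs gave 891 and 645 (47 list genes higher), since more genes were compared. Thinning to 1000 UMIs gave 16 and 17 (9 and 3 list genes), since fewer genes were compared. The settings added after the data were seen gave 76 and 62 (3 list genes lower) for receptor-positive members up to 20000 UMIs, 75 and 78 (19 and 3 list genes) for all receptor-positive members weighted equally, and 78 lower (5 list genes lower) for them with median-of-ratios scaling. Causes of the other moves were not tested. AA467197 was higher over all members and turned to -0.37 in receptor-positive members, -0.20 up to 20000 UMIs, -0.26 in receptor-positive members with median-of-ratios scaling and -1.14 with all members weighted equally. The 18 control members and their 130663 UMIs limit every ratio.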
